A study of Mus musculus with 6 samples.

Results

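Co-inhibitory receptors other than PD-1 were followed in regulatory T cells (Tregs) from mouse breast tumors, with and without treatment with an antibody to PD-1. The 9 genes were taken by symbol from the deposited count table of 23420 genes: Ctla4, Lag3, Havcr2 (TIM-3), Tigit, Cd96, Btla, Cd160, Klrg1 and 4632428N05Rik, the older symbol of Vsir, which encodes VISTA. All 9 were in the table, and 8 of them had enough counts to be tested between treatments, the exception being Cd160. The cells came from BALB/c mice that carry a GFP reporter of Foxp3 and had been injected with 10000 cells of T11, a transplanted claudin-low model of triple-negative breast cancer. The untreated group (3 libraries, numbered 1 to 3) received tumor cells alone, and the anti-PD-1 group (3 libraries, numbered 4 to 6) also received 200 µg of the antibody J43 into the peritoneum 2 times a week. Tumors were taken at 150 mm2 in both groups, and Tregs were isolated by their GFP, at a stated purity above 90%. The labels name no control antibody for the untreated group. They also leave unsaid whether each library is a different mouse, and a p-value here reflects library-to-library spread that may be technical.

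Co-inhibitory receptors are surface proteins that dampen T cell activation. They compete with activating receptors for shared ligands, recruit phosphatases, or remove ligands from neighbouring cells. CTLA-4 is the receptor most closely tied to Treg function: Tregs carry it constitutively, Foxp3 promotes its transcription, and it strips CD80 and CD86 from antigen-presenting cells. TIGIT, KLRG1, LAG-3 and TIM-3 mark activated or tissue-resident Tregs more than resting ones.

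Total counts ran from 4766533 to 6686774 per library, and every untreated library was deeper than every anti-PD-1 library. Untreated library 1 stood apart, with a chi-square statistic of 24.9 to 32.9 per degree of freedom against every other library, where all other pairs lay between 9.97 and 15.8. The defining markers of Tregs were abundant in both groups. Their values differed in both directions: Foxp3 stood at 450.02 ± 11.6 CPM (counts per 1000000 counts of a library, with TMM scaling; SD, n = 3) untreated and 522 ± 53.5 CPM with anti-PD-1, and Cd4 at 422 ± 50.3 and 477 ± 16.6 CPM. Ikzf2 (Helios) stood at 2144 ± 190.4 and 1821 ± 124 CPM and Il2ra (CD25) at 1389 ± 308 and 1088 ± 154 CPM. Markers of other cells that carry some of these receptors were scarce, and their sums overlapped between the groups, although single markers could differ: Siglech, of plasmacytoid dendritic cells, was at 0 in the untreated libraries and at 3.796 ± 1.93 CPM with anti-PD-1 (no overlap), and the B cell gene Ms4a1 at 1.52 ± 1.79 and 5.59 ± 3.55 CPM (overlapping). Summed over the list, CD8 T cell markers (2 genes) ran from 11.05 to 31.1 CPM untreated and from 18.7 to 51.1 CPM with anti-PD-1, and NK cell markers (6 genes, Klra8 at 0 in every library) from 5.36 to 9.44 and from 0.618 to 9.31 CPM. B cell markers (5 genes) ran from 3.20 to 10.8 and from 4.95 to 19.0 CPM, macrophage and monocyte markers (10 genes, C1qa at 0) from 7.20 to 13.0 and from 10.9 to 15.9 CPM, and dendritic cell markers (7 genes, Clec9a and Cd209a at 0) from 5.54 to 16.3 and from 9.68 to 16.1 CPM.

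None of the 8 tested receptor genes passed edgeR's quasi-likelihood test at a Benjamini-Hochberg adjusted p under 0.05 over all 10352 tested genes, where 0.029% of genes passed in either direction and 0% passed as lower. At an unadjusted p under 0.05 in edgeR, 3 of the 8 were lower after anti-PD-1 (Klrg1, Ctla4 and Tigit; 4.07% of all genes) and 1 was higher (Cd96; 4.23% of all genes), so 4 of 8 in either direction beside 8.3% of all genes. DESeq2 called Klrg1 as lower, 1 of the 6 that had an adjusted p (Lag3 and Havcr2 had none), where it called 0.3% of the 4331 genes with an adjusted p as lower and 0.785% in either direction. Limma-voom called 0 of the 8, with or without quality weights. In Klrg1 and Ctla4, all 3 anti-PD-1 libraries lay below all 3 untreated ones, as they did in 6.44% of all tested genes. In none of the 8 did all anti-PD-1 libraries lie above all untreated ones, as 7.18% of all genes did. The median log2 fold change was -0.41 over the 8 and 0.0016 over all tested genes, and 5 of the 8 lay below 0, beside 49.9% of all genes. Of those 5, Havcr2 and Lag3 rest on few counts (384 and 204 over the 6 libraries). The receptor genes were chosen with earlier results of these data known, so these shares are no independent evidence of direction.

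The promoters of Ctla4, Tigit and Cd96 are shown because Ctla4 and Tigit were the receptor genes of highest level, both with lower values after anti-PD-1, and Cd96 was the one with higher values at an unadjusted p under 0.05. RefSeq's promoter table (GRCm38.p6, the assembly of mm10) matched 7 of the 9 genes and had no entry for Klrg1 or Lag3. Each sequence is the 250 bases before the annotated start site, on the strand of the gene, with matches to GGAAA (the core bound by NFAT, a factor activated by T cell receptor signals) in capitals, where the match on the opposite strand reads TTTCC.
Ctla4, chr1:60908775-60909024, plus strand: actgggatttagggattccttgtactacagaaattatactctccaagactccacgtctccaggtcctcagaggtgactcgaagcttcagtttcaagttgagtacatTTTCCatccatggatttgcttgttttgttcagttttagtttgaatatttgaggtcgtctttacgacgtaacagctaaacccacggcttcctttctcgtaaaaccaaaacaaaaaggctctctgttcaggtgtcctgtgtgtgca
Tigit, chr16:43664185-43664434, minus strand: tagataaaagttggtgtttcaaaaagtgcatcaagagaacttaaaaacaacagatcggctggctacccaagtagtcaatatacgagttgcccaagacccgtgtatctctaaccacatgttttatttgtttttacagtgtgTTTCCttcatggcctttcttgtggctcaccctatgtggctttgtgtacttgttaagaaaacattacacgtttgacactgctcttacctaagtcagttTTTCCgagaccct
Cd96, chr16:46120249-46120498, minus strand: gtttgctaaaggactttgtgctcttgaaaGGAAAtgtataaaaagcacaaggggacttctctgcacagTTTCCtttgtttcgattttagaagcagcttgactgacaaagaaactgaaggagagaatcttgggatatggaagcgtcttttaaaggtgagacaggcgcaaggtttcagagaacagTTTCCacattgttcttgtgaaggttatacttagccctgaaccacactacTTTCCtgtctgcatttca
The Ctla4 window held 1 match, 140 to 144 bases before the start site, the Tigit window 2 and the Cd96 window 4. On either strand, GGAAA was found in 55.6% of the 32851 promoter windows of this length, a share that counts windows with any match and not the number of matches. The AP-1 motif TGANTCA (6.75% of windows) and the forkhead motif TGTTTAC (3.17% of windows) had no match in these 3 windows, and no matches overlapped. Among the receptor genes not shown, Havcr2, Btla and 4632428N05Rik had no GGAAA match, and Cd160 had 1 in 1 window and none in another. Havcr2 had 1 AP-1 match. A match describes letters and does not show binding.

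The receptor genes spanned a wide range of levels. In CPM per kb of exon, Ctla4 stood at 874 ± 92.3 (SD, n = 3) untreated and 658 ± 35.8 after anti-PD-1, and its mean ranked 33 among 10352 tested genes. Tigit followed at 163 ± 38.0 and 116 ± 33.5 per kb, and Klrg1 at 65.4 ± 10.95 and 36.3 ± 3.92 per kb. These 3 receptor genes stood above at least 89.8% of all tested genes. Cd96 stood at 28.6 ± 6.96 and 43.1 ± 11.2 per kb, 4632428N05Rik at 21.1 ± 4.92 and 23.1 ± 3.57, and Btla at 13.4 ± 1.01 and 15.4 ± 4.88. Havcr2 (4.84 ± 0.597 and 3.69 ± 1.11 per kb), Lag3 (3.84 ± 2.98 and 2.34 ± 1.39) and Cd160 (0.419 ± 0.449 and 0.0782 ± 0.0783) came last. RNA for TIM-3 and LAG-3 was thus low in these Tregs: Havcr2 stood above 31.04% of tested genes and Lag3 above 23.8%.

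**Figure D1:**
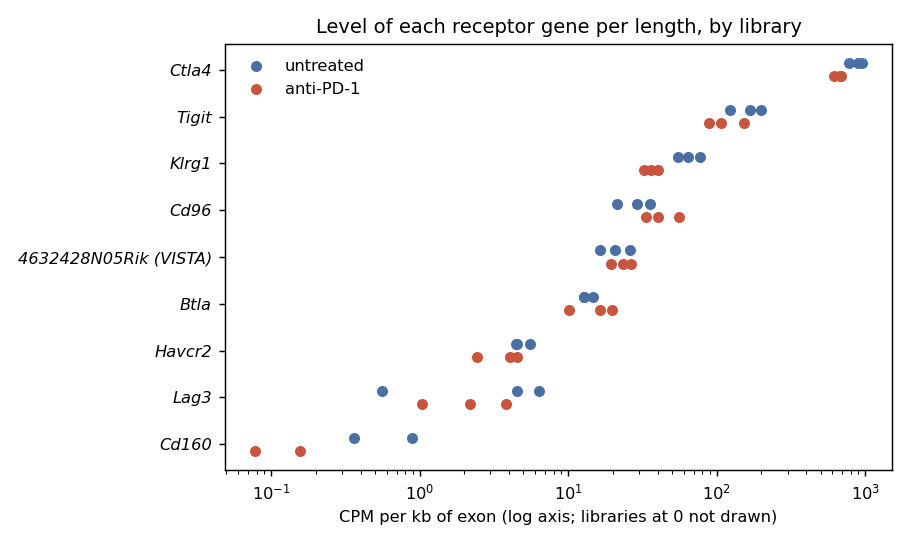
Level of each receptor gene per length, in CPM per kb of exon on a log axis, with each point a library (blue untreated, red anti-PD-1; libraries at 0 are not drawn). Ctla4 lies between 616 and 953 in every library, above all other receptor genes, and Lag3 spreads from 0.559 to 6.40.

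Of the 8 steps between neighbours in this order, 4 held in 6 of 6 libraries: Ctla4 above Tigit (median 5.85-fold), Tigit above Klrg1 (2.63-fold), Btla above Havcr2 (2.85-fold) and Lag3 above Cd160 (15.1-fold). The step from Lag3 to Cd160 had a mean log2 ratio of 3.99 with an SD of 2.44, and Cd160 had 0 counts in untreated library 2 and anti-PD-1 library 4. No test is given, since the order was set by the same libraries. Cd96 above 4632428N05Rik and 4632428N05Rik above Btla held in 5 of 6 libraries. Klrg1 and Cd96 were in order in 4 of 6 libraries, and their mean log2 ratio of 0.50 was smaller than its SD of 0.89. Havcr2 and Lag3 were likewise in order in 4 of 6, with a mean log2 ratio of 0.84 and an SD of 1.47. Klrg1 was above Cd96 in all 3 untreated libraries (54.9 against 35.4, 64.6 against 21.5 and 76.8 against 28.9 per kb). Among the anti-PD-1 libraries it was above Cd96 in library 4 alone (40.3 against 33.5 per kb), and the group means stood in the opposite order.

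**Figure D2:**
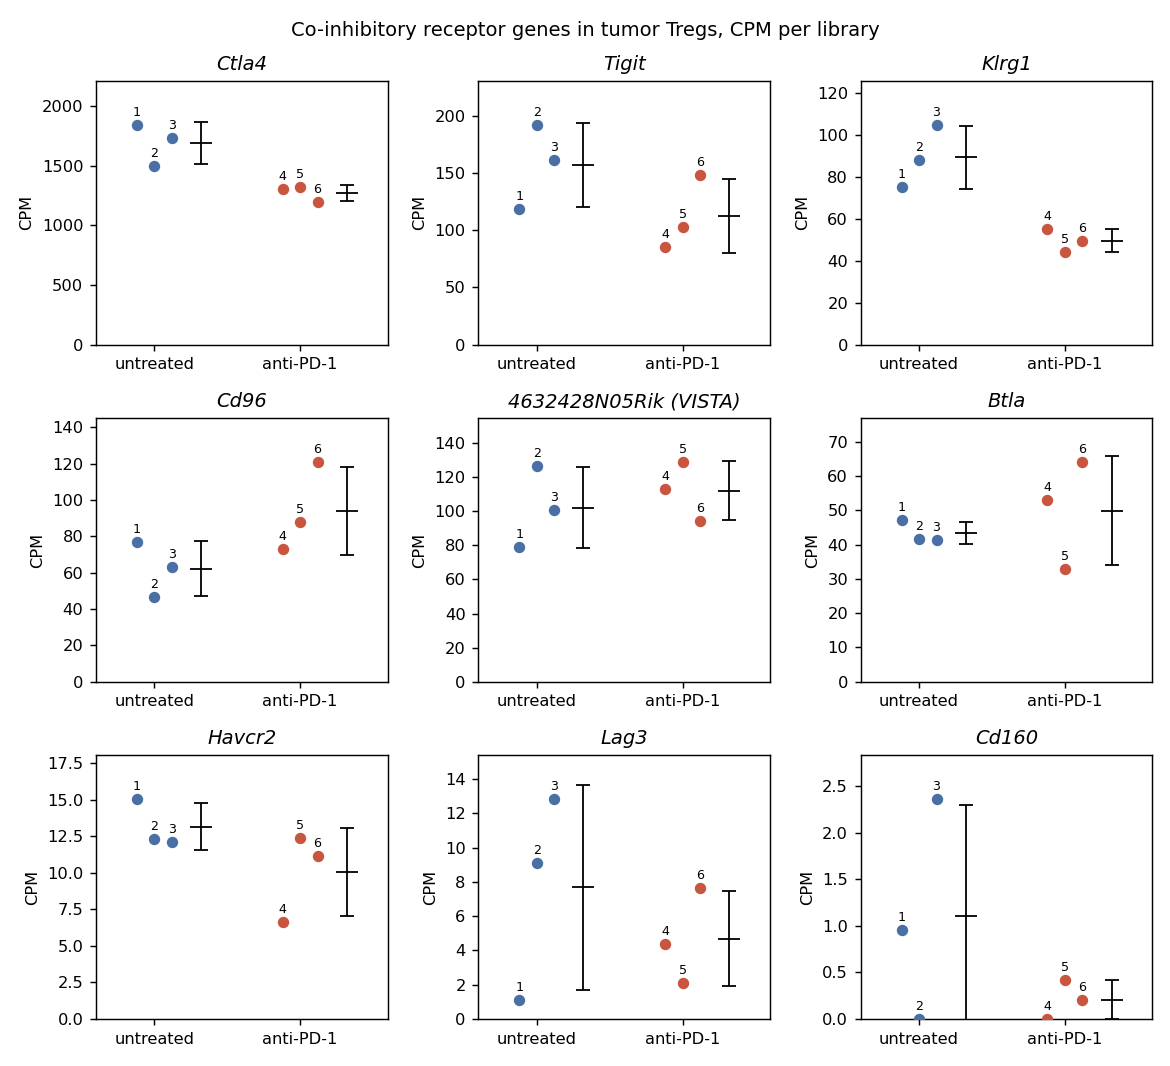
CPM of the 9 receptor genes in each library (points, numbered by library; blue untreated, red anti-PD-1), with the mean and SD of each group beside them (n = 3) and a separate axis from 0 for each gene. The groups are apart in Ctla4 (lowest untreated value 1492, highest anti-PD-1 value 1317) and Klrg1 (74.9 and 55.0); for Cd160 they rest on 23 counts in all.

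Ctla4 lies on chromosome 1 (mm10, 60909025 to 60915830, plus strand, 4 exons), between its activating relatives Cd28 (60746388 to 60773359) and Icos (60977914 to 61000321). It stood at 1839, 1492 and 1733 CPM in untreated libraries 1, 2 and 3 and at 1302, 1317 and 1190 CPM in the treated libraries 4, 5 and 6. Every anti-PD-1 library was below every untreated one. The log2 fold change was -0.41 ± 0.13 (SE; 95% interval -0.69 to -0.13), or 1.33-fold lower, with an edgeR unadjusted p of 0.0055 and an adjusted p of 0.448. In bulk RNA, fewer Tregs that express a receptor and less RNA of it per cell cannot be told apart. Ctla4's value stayed between -0.49 and -0.35 over 15 alternatives, with unadjusted p from 0.00121 to 0.0182 and adjusted p from 0.134 to 0.825.

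The neighbours of Ctla4 were compared with it within libraries, where the scaling of a library cancels. CD28 is the activating receptor that binds CD80 and CD86 as CTLA-4 does. Cd28 stood at 395 ± 13.6 CPM untreated and 392 ± 11.8 CPM with anti-PD-1 (log2 fold change -0.01 ± 0.14, SE). The count of Ctla4 was 4.51, 3.77 and 4.55 times that of Cd28 in untreated libraries 1, 2 and 3, and 3.45, 3.31 and 2.98 times in anti-PD-1 libraries 4, 5 and 6. The groups did not overlap, and the difference was -0.40 on the log2 scale (exact permutation p = 0.1, the smallest that 3 against 3 libraries can give; adjusted p = 0.4 over 4 ratios). Icos, the gene of a costimulatory receptor of activated Tregs, stood at 1774 ± 195 CPM untreated and 1395 ± 206 CPM with anti-PD-1 (-0.35 ± 0.14, edgeR adjusted p = 0.551). Per kb of exon, its mean over all libraries was 487 CPM, below the 766 CPM of Ctla4. The ratio of Ctla4 to Icos overlapped between the groups (log2 -0.07 ± 0.15 and -0.13 ± 0.15, SD, exact permutation p = 0.6), and the sign of its difference turned without untreated library 3. The ratio of Ctla4 to Foxp3, chosen after the values were seen, was 4.00, 3.41 and 3.83 in untreated and 2.40, 2.34 and 2.58 in anti-PD-1 libraries. The log2 difference was -0.62 (exact permutation p = 0.1, adjusted p = 0.1 over 3 such ratios). That adjustment leaves out the pairs passed over, so it is not comparable with that of the ratio to Cd28. The ratio of Ctla4 to Foxp3 depends on the gene chosen below the line. Foxp3 and Cd4 had higher values with anti-PD-1, whereas Ikzf2 (-0.24 ± 0.13, SE, no overlap) and Il2ra (-0.35 ± 0.16, overlapping) had lower ones, as Ctla4 did. Over the 6 libraries, the genes closest in centred log2 CPM to Ctla4 among 8694 candidates were Hcls1 (root mean square difference 0.0396), Exoc1 (0.0448) and Arfgap2 (0.0545).

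Tigit and Cd96 encode related receptors that both bind CD155 (Pvr) and compete with the activating receptor CD226 for it. They lie on chromosome 16 of mm10, Tigit at 43648861 to 43664184 (minus strand, 4 exons) and Cd96 at 46035657 to 46120248 (minus strand, 15 exons). Tigit stood at 119, 192 and 161 CPM in untreated libraries 1, 2 and 3 and at 85.5, 103 and 148 CPM in the treated libraries 4, 5 and 6. The groups overlapped, since anti-PD-1 library 6 exceeded untreated library 1, and the other 2 anti-PD-1 libraries were below all untreated ones. Its log2 fold change was -0.49 ± 0.21 (SE; 95% interval -0.92 to -0.06; edgeR unadjusted p = 0.0288, adjusted p = 0.551). Cd96 stood at 77.2, 46.8 and 63.1 CPM in untreated and at 73.2, 88.0 and 121 CPM in the treated libraries. Here anti-PD-1 libraries 5 and 6 were above all untreated ones, and library 4 was below untreated library 1. Its log2 fold change was 0.58 ± 0.23 (SE; 95% interval 0.11 to 1.05; edgeR unadjusted p = 0.0173, adjusted p = 0.521), and it was 0.36 when library 6 was left out and 0.42 when untreated library 2 was, with unadjusted p of 0.164 and 0.097. Tigit was -0.32 when either untreated library 2 or treated library 4 was left out, with unadjusted p of 0.184 and 0.185, and -0.74 when library 6 was. CD8 T cells and NK cells also express CD96. In treated libraries 4, 5 and 6 the CD8 markers summed to 25.8, 51.1 and 18.7 CPM and the NK cell markers to 4.36, 9.31 and 0.618 CPM, and their part in the Cd96 values was not tested.

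**Figure D3:**
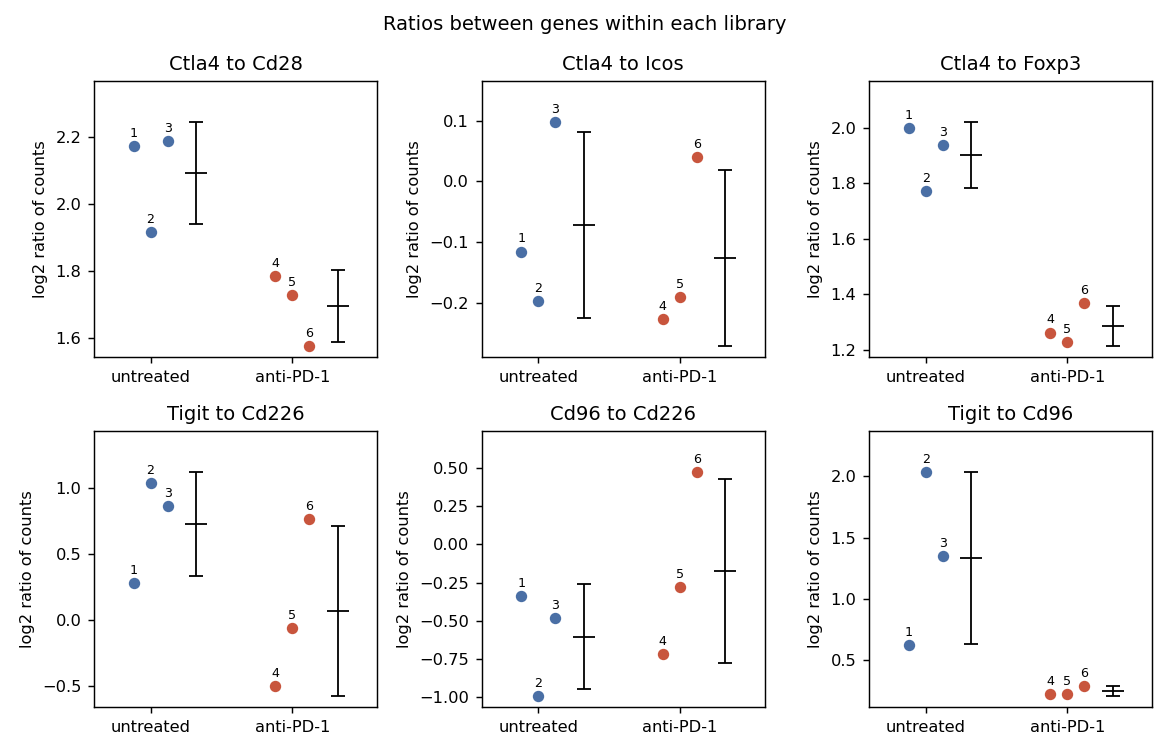
Log2 ratio of the counts of gene pairs in each library (points, numbered by library; blue untreated, red anti-PD-1), with group mean and SD beside them (n = 3); each axis has its own range. The groups are apart in Ctla4 to Cd28, Ctla4 to Foxp3 and Tigit to Cd96, and overlap in Ctla4 to Icos and in both ratios to Cd226.

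The ratio of Tigit to Cd96 was chosen after their opposite directions were seen, so it is no independent evidence of them. Tigit had 1.54, 4.09 and 2.55 times the counts of Cd96 in untreated libraries 1, 2 and 3, and 1.17, 1.17 and 1.22 times in anti-PD-1 libraries 4, 5 and 6. The untreated libraries were widely spread, the anti-PD-1 libraries nearly equal, and the groups did not overlap (log2 difference -1.09, exact permutation p = 0.1, the smallest possible). Cd226 itself stood at 93.0 ± 4.82 CPM untreated and 105 ± 17.0 CPM with anti-PD-1 (log2 fold change 0.17 ± 0.19, SE). The ratio of Tigit to Cd226 was 1.22, 2.05 and 1.83 in untreated and 0.709, 0.961 and 1.70 in anti-PD-1 libraries. It overlapped between the groups (log2 difference -0.66, exact permutation p = 0.2, adjusted p = 0.4), as did the ratio of Cd96 to Cd226 (0.43, exact permutation p = 0.4, adjusted p = 0.533). Pvr, the gene of their shared ligand, stood in these libraries at 43.9, 30.2 and 42.5 CPM untreated and at 53.3, 60.6 and 56.7 CPM with anti-PD-1. All 3 anti-PD-1 libraries were above the untreated ones, at a log2 fold change of 0.54 ± 0.24 (SE; edgeR unadjusted p = 0.0311, adjusted p = 0.552).

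Klrg1 encodes a lectin-like inhibitory receptor that binds cadherins and marks short-lived, highly differentiated effector Tregs (chromosome 6 of mm10, 122270597 to 122282833, minus strand, 5 exons). It stood at 74.9, 88.1 and 104.7 CPM in untreated libraries 1, 2 and 3 and at 55.0, 44.3 and 49.5 CPM in the treated libraries 4, 5 and 6. Every anti-PD-1 library was below every untreated one, and the mean was 1.79-fold lower. Its log2 fold change was -0.84 ± 0.21 (SE; 95% interval -1.29 to -0.40), with an edgeR unadjusted p of 0.000637, rank 29 among 10352 genes, and an adjusted p of 0.227. DESeq2 called it (-0.86, adjusted p = 0.0262), as did edgeR without untreated library 1 (-0.96, adjusted p = 0.0392). Over the 15 alternatives its unadjusted p was under 0.05 in all 15, the adjusted p ran from 0.0262 to 0.752, and the fold change from -0.96 to -0.72. Relative to Foxp3, a ratio chosen after the values were seen, Klrg1 stood at 0.163, 0.202 and 0.231 untreated and at 0.101, 0.079 and 0.107 after anti-PD-1, without overlap (exact permutation p = 0.1). NK cells also carry KLRG1. Their markers summed to 7.04, 5.36 and 9.44 CPM in untreated libraries 1, 2 and 3. In treated libraries 4, 5 and 6 they summed to 4.36, 9.31 and 0.618 CPM, so the groups overlapped through library 5 alone. The part of NK cells in the Klrg1 values was not tested. Among the 3 genes closest to Klrg1 in centred log2 CPM over the 6 libraries were Arhgap11a (root mean square difference 0.122) and Kif15 (0.125), the last a mitotic kinesin.

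A list of 14 genes of tissue effector Tregs, which are commonly found together with KLRG1, was chosen with earlier results of these data known and is no independent evidence of direction. All 14 members were tested, all 14 had a log2 fold change below 0 (49.9% of all tested genes did), 7 were lower at an unadjusted p under 0.05 in edgeR (4.07% of all genes were), and none passed after adjustment. The median was -0.44. Its members of smallest p were Ccr2, a chemokine receptor (-0.79 ± 0.20, SE; 651 ± 72.2 and 375 ± 131 CPM, SD; DESeq2 adjusted p = 0.0427), Fgl2, a secreted immunoregulator (-0.49 ± 0.15; 742 ± 23.7 and 530 ± 113 CPM), and Itgae, the CD103 integrin chain of tissue-resident T cells (-0.42 ± 0.15; means of 896 and 670 CPM). In each of these 3, picked by their p, the groups did not overlap, as in 6.44% of all genes.

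**Figure D4:**
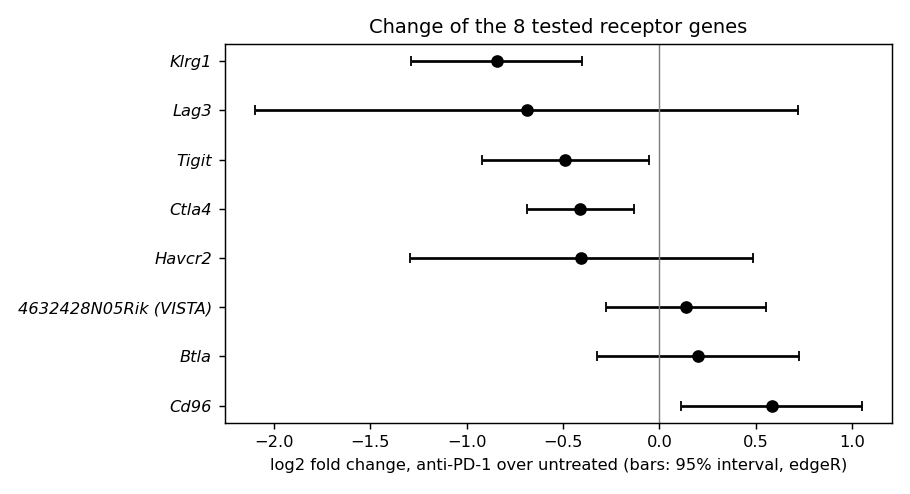
Log2 fold change of each of the 8 tested receptor genes, anti-PD-1 over untreated (points), with its 95% interval from edgeR's fit (bars). The intervals of Klrg1, Tigit and Ctla4 lie below 0 and that of Cd96 above it, before adjustment for the number of genes; that of Lag3 spans -2.10 to 0.72.

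Lag3 and Havcr2 gave few counts. Lag3, a CD4-related receptor that binds MHC class II (chromosome 6, 124904359 to 124911705, minus strand, 8 exons), had 7, 51 and 76 counts in untreated libraries 1, 2 and 3 and 23, 10 and 37 in anti-PD-1 libraries 4, 5 and 6. In CPM it ranged from 1.12 to 12.8 untreated and from 2.07 to 7.62 after anti-PD-1, so untreated library 1 was the lowest of all. Its log2 fold change of -0.69 ± 0.68 (SE) had a 95% interval from -2.10 to 0.72. The value was -1.23 when untreated library 1 was left out (edgeR unadjusted p = 0.0327, adjusted p = 0.582) and -0.07 when untreated library 3 was. Leaving out library 5 or 6 of the treated group gave -0.35 and -1.20. Havcr2, the receptor of galectin-9 and other ligands (chromosome 11, 46454931 to 46481254, plus strand, 7 exons), stood at 15.05, 12.3 and 12.1 CPM untreated and at 6.63, 12.4 and 11.1 CPM with anti-PD-1. Anti-PD-1 libraries 4 and 6 were below all untreated ones, but only library 4 was clearly apart. The log2 fold change was -0.41 ± 0.43 (SE, 95% interval -1.29 to 0.48, and -0.17 without anti-PD-1 library 4). Both intervals are wide, and that of Lag3 comes with untreated counts that differed widely between libraries (coefficient of variation 77.8%), the lowest in the deepest library.

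BTLA and CD160 share the ligand HVEM (Tnfrsf14), and VISTA is an inhibitory receptor most abundant on myeloid cells and resting T cells. Btla (chromosome 16, 45224337 to 45252895, plus strand, 6 exons) stood at 47.2, 41.6 and 41.5 CPM untreated and at 52.9, 32.9 and 64.1 CPM with anti-PD-1. The untreated libraries were close to each other (coefficient of variation 7.53%) and the anti-PD-1 libraries lay on both sides of them (31.6%), with a log2 fold change of 0.20 ± 0.25 (SE; 95% interval -0.32 to 0.73) that turned to -0.01 without anti-PD-1 library 6. B cells also carry BTLA; their markers summed to 11.8, 19.0 and 4.95 CPM in treated libraries 4, 5 and 6, and their part in the Btla values was not tested. 4632428N05Rik (chromosome 10, 60346851 to 60372684, plus strand, 7 exons) stood at 78.9, 127 and 101 CPM untreated and at 113, 129 and 94.2 CPM with anti-PD-1. Its values overlapped throughout, at a log2 fold change of 0.14 ± 0.20 (SE; 95% interval -0.28 to 0.55) that turned to -0.02 without untreated library 1. Myeloid markers overlapped between the groups, and their part in these values was not tested. Cd160 (chromosome 3, 96798763 to 96829351, minus strand, 6 exons) had 6, 0 and 14 counts in untreated and 0, 2 and 1 counts in anti-PD-1 libraries, and was not tested. Summed over a group it had 1.13 CPM untreated (95% exact Poisson interval 0.687 to 1.74) and 0.201 CPM with anti-PD-1 (0.0414 to 0.586), a ratio of 0.178 (0.0339 to 0.601). These intervals cover counting error only, and 14 of the 20 untreated counts came from library 3. A count of 0 allows up to 0.536 CPM in untreated library 2 and 0.569 CPM in anti-PD-1 library 4 (3 counts). The NK cell markers had their highest sums in untreated library 3 (9.44 CPM) and anti-PD-1 library 5 (9.31 CPM). The part of NK cells and CD8 T cells in the Cd160 values was not tested.

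Summed over the 9 genes, the receptors took 2254, 2008 and 2232 CPM in untreated libraries 1, 2 and 3 and 1693, 1728 and 1686 CPM in the treated libraries 4, 5 and 6. The means were 2164 ± 136 and 1702 ± 22.8 CPM (SD, n = 3), with no overlap (exact two-sided permutation p = 0.1, the smallest possible). Most of this was Ctla4, which made up 77.9% ± 3.67 of the sum untreated and 74.6% ± 3.46 after anti-PD-1. Without Ctla4, the sum was 476 ± 54.5 and 432 ± 55.6 CPM and overlapped between the groups (exact permutation p = 0.2).

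Genes around the receptors were grouped by role, in lists chosen with earlier results of these data known. In the lists that follow, edgeR called none after adjustment; of all tested genes, 49.9% lay below 0, and at an unadjusted p under 0.05 4.07% were lower and 4.23% higher. Of 18 ligand genes, 11 were tested, with a median of 0.12. Of the 11, 7 lay above 0, and 3 were higher at an unadjusted p under 0.05 in edgeR (4.23% of all genes were) and none lower. Besides Pvr these were Selplg, whose product PSGL-1 is a ligand of VISTA at acidic pH (0.40 ± 0.16, SE; 295 ± 43.0 and 387 ± 55.5 CPM, SD), and Cd80, a ligand of CTLA-4 and CD28. Cd80 stood at 31.7, 32.3 and 30.5 CPM untreated and at 45.9, 47.4 and 44.1 CPM with anti-PD-1, with a small spread in each group and no overlap (log2 fold change 0.54 ± 0.25, SE; edgeR unadjusted p = 0.0389, adjusted p = 0.572). Antigen-presenting cells also carry CD80 and CD86, and the part of other cells in the ligand values was not tested. Of 9 activating receptors, 6 were tested, with a median of 0.08. Icos, which is also in the tissue effector list, was the only one with an unadjusted p under 0.05, and Cd4 (0.18 ± 0.14) and Cd2 (-0.17 ± 0.14) came next.

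Among 16 phosphatases, kinases and adaptors of inhibitory signalling, all tested, 8 lay above and 8 below 0, with a median of 0.02. Those with an unadjusted p under 0.05 were Ptpn6, the phosphatase SHP-1 that inhibitory receptors recruit (-0.60 ± 0.23, SE; 69.9 ± 8.84 and 46.3 ± 8.55 CPM, SD), and the adaptor Grb2 (-0.38 ± 0.18); Ubash3a followed at 0.33 ± 0.18. Among 10 genes of CTLA-4 traffic and receptor shedding, all tested, 7 lay below 0 (49.9% of all genes did), 3 were lower and 1 higher at an unadjusted p under 0.05 (4.07% and 4.23% of all genes), and the median was -0.30. Lrba, which protects CTLA-4 from degradation in lysosomes, stood at 653, 585 and 573 CPM untreated and at 455, 513 and 451 CPM with anti-PD-1, without overlap (-0.35 ± 0.14; edgeR unadjusted p = 0.0192, adjusted p = 0.534). Adam17, a protease that sheds LAG-3 and other surface proteins, stood at 275 ± 23.0 and 197 ± 35.8 CPM (-0.48 ± 0.16; edgeR unadjusted p = 0.00719, adjusted p = 0.459). Trat1, an adaptor that brings CTLA-4 to the surface, had higher values (0.46 ± 0.21).

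**Figure D5:**
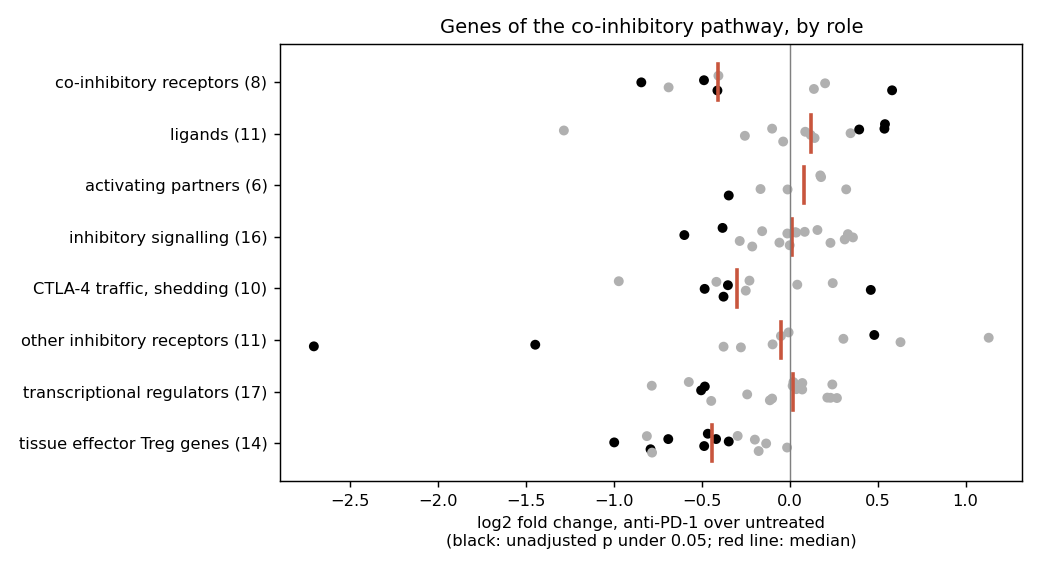
Log2 fold change (anti-PD-1 over untreated) of every tested gene of the co-inhibitory receptors and of 7 lists around them, with the number tested in brackets; black points have an edgeR unadjusted p under 0.05 and red lines are list medians. The medians of the receptors (-0.41), the CTLA-4 traffic list (-0.30) and the tissue effector list (-0.44) lie below 0, and those of the other lists between -0.05 and 0.12.

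Among 16 other inhibitory receptors of leukocytes, 11 were tested, with 4 above and 7 below 0 and a median of -0.05. Pecam1 had higher values (0.48 ± 0.20, SE; 70.5 ± 5.20 and 98.7 ± 21.3 CPM, SD), and Lair1, a collagen receptor (-1.45 ± 0.61; 9.62 ± 3.44 and 3.54 ± 2.33 CPM), and Klrc1, the NKG2A chain (2.32 ± 0.319 and 0.343 ± 0.595 CPM), had lower ones from few counts. Pdcd1, the gene of PD-1 itself and one of the 11, stood at 82.1 ± 7.15 and 68.2 ± 32.1 CPM. Of 18 transcriptional regulators of co-inhibitory receptors, 17 were tested, 9 above and 8 below 0, with a median of 0.02. The 2 with an unadjusted p under 0.05 were Maf (-0.50 ± 0.15; 528 ± 33.2 and 372 ± 63.7 CPM, no overlap) and Prdm1, the gene of BLIMP-1 (-0.48 ± 0.18; 230.04 ± 18.8 and 164 ± 41.9 CPM, overlapping), which together drive a co-inhibitory gene programme in T cells; Batf followed at -0.57 ± 0.29. Adjusted p in edgeR was 0.414 for Maf, 0.481 for Prdm1 and 0.628 for Batf.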

How the data were processed

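RNA from sorted tumor Tregs was sequenced in 6 libraries made with the NuGEN Ovation SoLo kit, per the labels' protocols. The deposited table holds whole-number counts, made by the authors with featureCounts 1.5.2 and the UCSC mm10 gene models, counting fragments with strand setting 1, per the file headers. FastQC, DESeq2 and bcl2fastq appear in the submitters' processing notes. Aligner settings and any removal of duplicates: not given in the sources used here. Exon lengths came from the same table. 1 unnamed column, with 6 values, was not used.

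Low genes were removed with edgeR's filterByExpr (defaults: minimum count 10, minimum total 15), leaving 10352 of 23420. Counts were scaled by TMM and tested with edgeR 4.0.16 (glmQLFit with robust shrinkage, glmQLFTest) in R 4.3.3, two-sided, in a model of treatment alone; calls use a Benjamini-Hochberg adjusted p under 0.05. Fold changes have SEs and 95% intervals from that fit. CPM values are scaled by TMM; levels of different genes were compared per kb of exon. Ratios within libraries used counts plus 0.5. Alternatives were DESeq2 1.42.0 on the same genes, limma-voom (limma 3.58.1) with and without quality weights, other scalings, filters and dispersions, and each library left out. The test scripts were tested on simulated counts.

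The 9 receptor genes and the gene lists were chosen with earlier results of these data known. Named are all 9, up to 3 genes per list by smallest p, the partners in ratios and the 3 genes closest to Ctla4 and to Klrg1. 1 gene that the rule names is not reported here. Genes and ratios outside this rule are marked, or are Pdcd1 and single markers of cell types, named after their values were seen. Among 160 list entries, synonyms placed 4, and 1 was not placed. Markers of neutrophils and mast cells, endothelial cells and tumor cells or fibroblasts were also summed: the first reached at most 8.39e-05% of counts, endothelial cells 3.66e-05%, and the last took 0.104% to 0.181%, mostly Vim, which T cells express.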

Additional observations from a re-analysis of the deposited data

How the results depend on the processing

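No paired analysis was possible because the groups share no replicate numbers. The count of receptor genes called was 0 in edgeR, 1 with DESeq2 (Klrg1) and between 0 and 1 when a library was left out (Klrg1, without untreated library 1). The count over all genes, 3 in edgeR, was 34 with DESeq2, 5 with limma-voom, 12 with quality weights, 5 with upper quartile scaling, 7 with total counts only (6 higher and 1 lower, against 3 and 0), 52 without a filter, and between 1 and 19 with a library left out. Directions turned for 4632428N05Rik without untreated library 1 (-0.022, range to 0.323), for Btla without anti-PD-1 library 6 (-0.0102, range to 0.424) and for the ratio of Ctla4 to Icos without untreated library 3 (0.0306, range -0.138 to 0.0306). The cause was not tested. The summed receptor level differed by -0.34 (log2), and by -0.14 without Ctla4. Ctla4, Tigit, Klrg1, Lag3 and Havcr2 stayed below 0 and Cd96 above 0 in all 15 alternatives. The use of dispersions from estimateDisp was chosen after seeing the data and called 3 genes. Scalings moved the median of all genes by less than 0.1. Lag3, Havcr2 and Cd160 rest on few counts (204, 384 and 23 over the 6 libraries).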
